A study of Mus musculus with 32 samples.

Results

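The antiproteases described here are 7 genes whose products block proteases in the lung, namely Serpina3m, Serpina3n, Serpina3g, Serpina3f, Slpi, Serpinb1a and Serpine2. They were chosen by gene symbol, with earlier results of these data known. Each of the 7 symbols matched 1 row among the 35275 genes of the count table. The study sequenced poly(A) RNA of whole lung from the mouse strain labelled C57B/6, in 32 libraries that form 8 groups. In experiment 1, mice without surgery were kept for 5 months in room air (3 male and 3 female libraries) or in cigarette smoke (5 male and 5 female libraries), which asks how smoke and sex alter the lung. In experiment 2, all mice were female and all were exposed to smoke after ovariectomy, the removal of the ovaries, or a sham operation, with 3 libraries of each at 3 months and 5 of each at 5 months. Experiment 2 holds no air group, and its groups were not tested against those of experiment 1 because experiment and surgery cannot be told apart. Neither the age of the mice nor the smoke dose is stated. The labels do not say whether replicate libraries were made from different mice, so p-values measure the spread between libraries, which may be technical.

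Proteases released by neutrophils and macrophages can digest elastin and other matrix proteins of the alveolar wall, and antiproteases hold them in check. An inherited shortage of alpha-1 antitrypsin, a serpin made mainly by the liver, leads to emphysema in people. Serpins trap their target protease in a covalent complex after it cuts an exposed loop, and each molecule is spent in doing so. Slpi, the secretory leukocyte protease inhibitor, is not a serpin but a small WAP domain protein that airway epithelium secretes and that inhibits neutrophil elastase and cathepsin G. Serpinb1a encodes an intracellular serpin of neutrophils and other leukocytes that inhibits elastase, cathepsin G and proteinase 3. Serpine2 encodes protease nexin-1, which inhibits thrombin, plasmin and urokinase at the cell surface. The Serpina3 genes are the mouse counterparts of a single human gene for alpha-1 antichymotrypsin. Among them, Serpina3n encodes a secreted acute phase protein that inhibits granzyme B and leukocyte elastase, and Serpina3g encodes an intracellular inhibitor of cathepsins that interferon gamma induces.

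The 4 Serpina3 members lie on chromosome 12 in a row of 14 Serpina3 records between positions 104112724 and 104414329 (GRCm38), a span of 301.606 kb. Serpina3f (104214544 to 104221129), Serpina3g (104236245 to 104241939), Serpina3m (104338486 to 104394257) and Serpina3n (104406729 to 104414329) are all on the plus strand and protein coding. Slpi is on the minus strand of chromosome 2 (164354070 to 164389095), Serpinb1a on the minus strand of chromosome 13 (32842092 to 32851185) and Serpine2 on the minus strand of chromosome 1 (79794197 to 79861180). The Serpina3 genes are near copies of each other, so their counts are less certain than those of the other 3 members. Of all stretches of 50 bases in its transcripts, Serpina3m shared 19.1% with other genes of the row, Serpina3g 15.5%, Serpina3f 10.6% and Serpina3n 6.90%, whereas Slpi and Serpine2 shared 0% with genes of the lists used here. The record of Serpina3m starts at the same base as that of Serpina3k, a serpin known from liver. Of the 1719 exonic bases of Serpina3m, 60 (3.49%) lie in exons of both. Sequence was shared more widely: of the 1610 stretches of 50 bases in Serpina3m, 307 were shared with other genes of the row, 257 of them with Serpina3k. Of the counts of the whole row over 32 libraries, Serpina3n took 66.0%, Serpina3g 10.9%, Serpina3f 2.66% and Serpina3m 2.61%. A sum over the whole row, which does not depend on how reads were split among the copies, was therefore tested beside the single genes. Most of the sum is Serpina3n, so it is no separate evidence about that gene. Whether reads that match several copies were left out of the counts is not known.

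Promoters are shown for the 3 Serpina3 members that RefSeq lists in its GRCm38.p6 annotation, because these copies are close in sequence and yet differed in level, as described below. Each runs from 250 bases before to 50 bases after the start of transcription, 5′ to 3′ on the plus strand. Capitals mark a glucocorticoid receptor palindrome (GNACA, 3 free bases, then TGTNC) in Serpina3n and a STAT palindrome (TTCNNNGAA), named for a family of transcription factors, in Serpina3g and Serpina3f. The regions are chr12:104406458-104406757 for Serpina3n, chr12:104235897-104236196 for Serpina3g and chr12:104214294-104214593 for the first of the starts of Serpina3f.
Serpina3n: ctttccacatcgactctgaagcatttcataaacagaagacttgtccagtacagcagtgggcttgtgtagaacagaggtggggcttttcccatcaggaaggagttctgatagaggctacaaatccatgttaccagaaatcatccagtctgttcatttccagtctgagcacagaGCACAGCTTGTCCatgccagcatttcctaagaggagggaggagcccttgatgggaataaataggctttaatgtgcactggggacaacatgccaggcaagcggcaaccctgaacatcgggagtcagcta
Serpina3g: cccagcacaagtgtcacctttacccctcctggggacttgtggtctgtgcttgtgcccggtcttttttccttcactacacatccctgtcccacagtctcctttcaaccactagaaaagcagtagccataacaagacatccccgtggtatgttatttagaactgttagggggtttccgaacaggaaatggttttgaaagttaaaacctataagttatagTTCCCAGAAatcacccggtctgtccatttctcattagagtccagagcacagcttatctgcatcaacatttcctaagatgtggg
Serpina3f: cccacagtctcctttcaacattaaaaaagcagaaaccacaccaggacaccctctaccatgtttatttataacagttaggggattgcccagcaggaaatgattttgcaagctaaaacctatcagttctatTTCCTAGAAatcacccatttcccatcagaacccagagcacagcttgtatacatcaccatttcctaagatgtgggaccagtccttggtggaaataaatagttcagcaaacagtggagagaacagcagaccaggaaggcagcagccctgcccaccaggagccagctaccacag
The glucocorticoid receptor palindrome began at position -78 of Serpina3n, and 0.463% of 27025 mouse promoters of this length hold one on either strand. The STAT palindrome began at position -33 of Serpina3g and at -121 of Serpina3f, and 8.47% of promoters hold one. In both, the same run of bases follows the palindrome. Positions count from the RefSeq starts, and the Serpina3g region ends at 104236196, before its gene record begins at 104236245. The positions in these copies are therefore not directly comparable. TATAAA, also searched on both strands, was found in these members only in Serpina3f, at -186 on the opposite strand, and in 14.2% of promoters. None of these matches overlapped another. Slpi and Serpine2 also had an entry and held none of the 3 motifs. In an alignment of the Serpina3g and Serpina3f promoters, 169 of 202 aligned bases (83.7%) were identical, with 196 bases set against gaps. Serpina3n shared 150 of 205 aligned bases (73.2%) with Serpina3g, with 190 against gaps, and 200 of 281 (71.2%) with Serpina3f, with 38 against gaps. A match is a run of letters and was not measured as a bound site.

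Library depth ran from 13790052 to 24497332 counts. The sex labels held in all libraries: Xist counts were 4496 to 11365 in the 24 libraries labelled female and 11 to 68 in the 8 labelled male, and those of the Y-linked Ddx3y were 0 to 13 and 1103 to 1803. Lung identity was plain in every group, with a summed level of 6 alveolar type 2 cell genes of at least 30799 CPM (read counts relative to library size, scaled by TMM within each experiment). In 7 libraries the liver gene Alb exceeded 100 CPM, namely male air 1, female air 2, ovariectomized 3-month 2 and 3, sham 5-month 1 and 2, and ovariectomized 5-month 5. Since Serpina3m adjoins the liver gene Serpina3k, its results are given with and without these libraries.

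The 7 members differed widely in level. On the deposited per-length scale (TPM, in which counts are divided by gene length before scaling), the mean over 32 libraries was 190 for Slpi, 77.1 for Serpina3n, 66.1 for Serpine2, 43.1 for Serpinb1a, 14.9 for Serpina3g, 3.80 for Serpina3m and 2.89 for Serpina3f. Single libraries held 850 to 2285 counts of Slpi, 524 to 2992 of Serpina3n, 1241 to 2899 of Serpine2 and 365 to 909 of Serpinb1a. The scarce members rested on fewer reads, with 100 to 537 counts of Serpina3g, 4 to 200 of Serpina3m and 9 to 152 of Serpina3f. All 7 passed the filter on low counts in both experiments.

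**Figure D1:**
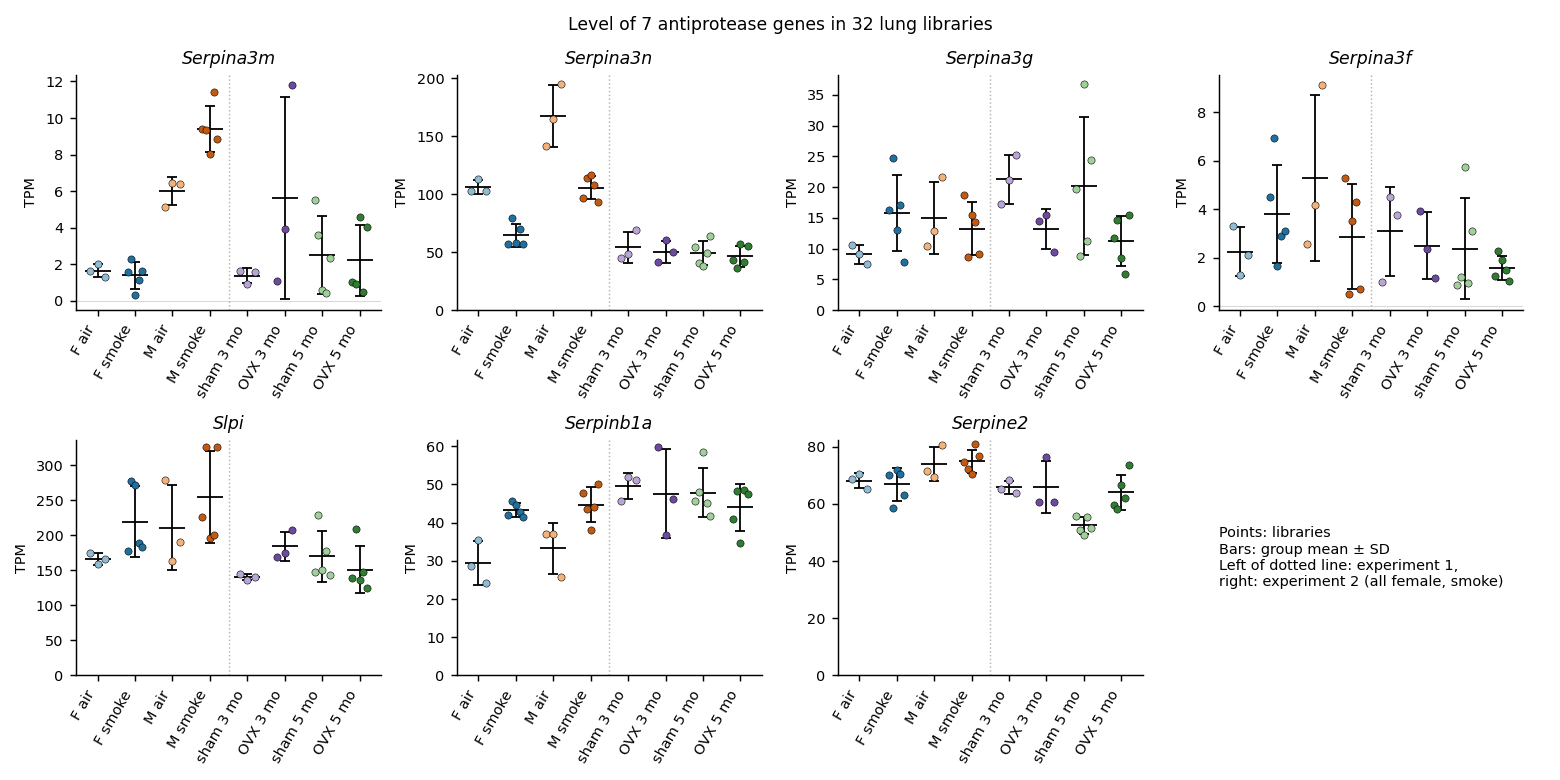
Level of each antiprotease gene in TPM (vertical axis) in the 32 libraries, by group (horizontal axis; F female, M male, mo months, OVX ovariectomized); points are libraries and bars the group mean ± SD. By group mean, Serpina3m is highest in male smoke and Serpina3n in male air, and Serpinb1a is lowest in both air groups; the highest single library of Serpina3m, at 11.8 TPM, is an ovariectomized 3-month one.

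By mean TPM, Serpina3m stood at 9.40 ± 1.25 (SD, n = 5) in male smoke and 5.99 ± 0.763 (n = 3) in male air, and the libraries of these 2 groups did not overlap. The next group was ovariectomized 3-month at 5.62 ± 5.53 (n = 3), a mean that rests on libraries far apart, and the other 5 groups lay between 1.38 and 2.50, each overlapping its neighbour in the order. Serpina3n was highest in male air at 167 ± 26.8 (n = 3), followed without overlap by female air at 106 ± 6.15 (n = 3). Male smoke stood at 106 ± 10.1 (n = 5), overlapping female air, and female smoke followed without overlap at 64.6 ± 10.2 (n = 5). The 4 groups of experiment 2 came last, between 46.6 and 54.3, and overlapped each other and female smoke in order. Serpinb1a was lowest in female air at 29.4 ± 5.71 (n = 3) and male air at 33.2 ± 6.56 (n = 3), below the 6 smoke groups at 43.4 to 49.5. Serpine2 was lowest in sham 5-month at 52.5 ± 2.93 (n = 5), with no overlap with the next group, ovariectomized 5-month at 64.1 ± 6.13 (n = 5). Slpi ran from 140 ± 4.09 (n = 3) in sham 3-month to 255 ± 65.7 (n = 5) in male smoke, Serpina3g from 9.09 ± 1.53 (n = 3) in female air to 21.3 ± 3.97 (n = 3) in sham 3-month, and Serpina3f from 1.59 ± 0.496 (n = 5) in ovariectomized 5-month to 5.28 ± 3.41 (n = 3) in male air. For Slpi, Serpina3g and Serpina3f every group overlapped the next one in the order.

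With smoke, Serpina3n fell and Serpinb1a rose in both sexes. In females Serpina3n fell 1.70-fold and Serpinb1a rose 1.43-fold, so that 1 member rose and 1 fell of 7 tested. Of 16361 genes 7.7% were called in females, 4.52% higher and 3.18% lower. In males Serpina3n fell 1.54-fold and Serpinb1a rose 1.37-fold, again 1 up and 1 down of 7, where 10.3% of genes were called, 4.93% higher and 5.33% lower. The other 5 members did not pass the test in either sex. The median log2 fold change of the members was 0.35 in females and 0.06 in males, where that of all genes tested was -0.01 and 0.01. The test was the quasi-likelihood F test of edgeR, and calls are made at 0.05 after adjusting p by Benjamini and Hochberg over all genes tested. Whether groups overlap is given as a description, and the share of all genes without overlap was not counted. In whole lung, fewer cells of a type and less RNA per cell cannot be told apart.

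Serpina3n stood at 106, 105 and 110 CPM in the 3 female air libraries and at 55.8, 78.9, 55.7, 66.8 and 58.3 CPM in the 5 female smoke libraries. Every smoke library lay below every air library. The fitted log2 fold change was -0.76 (SE 0.104, edgeR adjusted p = 0.000158). In males the air libraries held 146, 163 and 178 CPM and the smoke libraries 93.2, 110, 112, 116 and 96.9 CPM. Again the groups did not overlap, and the log2 fold change was -0.62 (SE 0.103, edgeR adjusted p = 0.000538). The sum of the whole Serpina3 row, mostly counts of Serpina3n itself, also fell. It fell by 0.54 on the log2 scale in females (SE 0.108, edgeR adjusted p = 0.00362) and by 0.63 in males (SE 0.107, edgeR adjusted p = 0.000650). Without the libraries over 100 CPM of Alb, Serpina3n had a log2 fold change of -0.79 in females and -0.72 in males. The effect in males minus that in females was 0.15 on the log2 scale (SE 0.149, edgeR adjusted p = 0.950), and no member passed this test of a difference between the sexes, where 0.00611% of genes did. Of 6 adventitial fibroblast genes 3 fell in both sexes (Pi16, Mfap5 and Clec3b), with a summed level of 779.5 to 949 CPM in female air, 746 to 878 CPM in female smoke, 969 to 1092 CPM in male air and 859 to 1067 CPM in male smoke. None of the 6 was under the filter on low counts, and their part in the fall of Serpina3n was not tested.

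Serpinb1a was at 27.6, 30.7 and 24.0 CPM in female air and at 38.1, 42.0, 39.9, 37.7 and 39.1 CPM in female smoke. All smoke libraries were above all air libraries, and the log2 fold change was 0.52 (SE 0.134, edgeR adjusted p = 0.0190). In males the air libraries held 35.2, 34.0 and 21.7 CPM and the smoke libraries 42.8, 39.0, 33.9, 43.8 and 48.1 CPM. These groups overlapped, since male smoke 3 lay just under the upper pair of air libraries, and the log2 fold change was 0.45 (SE 0.134, edgeR adjusted p = 0.0334). The calls rest on few air libraries. In females the call ended without air library 1 (edgeR adjusted p = 0.0604) or air library 3 (adjusted p = 0.152). In males it ended without air library 2 (edgeR adjusted p = 0.0513) or 3, where the log2 fold change became 0.26 (adjusted p = 0.249), and without smoke library 1 (adjusted p = 0.0711), 4 (0.0619) or 5 (0.0934). Of 10 neutrophil genes, all above the filter on low counts, S100a8 and S100a9 rose in both sexes and the other 8 did not pass the test, where 4.52% of all genes in females and 4.93% in males were called higher. Without female air 3 neither was called in females (edgeR adjusted p = 0.0728 and 0.0708), and S100a9 was not called in males without male air 2 (0.0572) or 3 (0.0635). The summed level of the 10 genes was 109.9 to 181 CPM in female air, 141 to 247 CPM in female smoke, 59.9 to 133 CPM in male air and 79.4 to 179 CPM in male smoke, and its part in the rise of Serpinb1a was not tested. Of the proteases Serpinb1a inhibits, the elastase gene Elane had group means of 0 to 0.0625 CPM in experiment 1 and the cathepsin G gene Ctsg 0 to 0.0369 CPM. Prtn3, the proteinase 3 gene, was the only 1 of 4 neutrophil serine protease genes with enough counts to be tested there, at 1.02 to 1.53 CPM by group mean. Its log2 fold change was -0.14 in females (edgeR adjusted p = 0.906) and 0.37 in males (adjusted p = 0.706). These are RNA levels, and the amounts of the protease proteins were not measured.

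Slpi was variable among libraries of 1 group. It measured 76.9, 62.7 and 75.4 CPM in female air and 73.4, 116, 111, 76.3 and 78.9 CPM in female smoke, and the groups overlapped. The log2 fold change was 0.35 (SE 0.249, edgeR adjusted p = 0.477). In males it measured 122, 68.6 and 73.7 CPM in air and 92.9, 133, 80.1, 91.0 and 143 CPM in smoke, with overlap and a log2 fold change of 0.30 (SE 0.248, edgeR adjusted p = 0.535). Of 7 club cell genes, the airway secretory cell type, none passed the test in either sex, and their summed level was 33868 to 48111 CPM in female air and 11499 to 32987 CPM in female smoke, without overlap. In males it was 15321 to 38849 CPM in air and 7958 to 40690 CPM in smoke, with overlap, and its part in the Slpi values was not tested. Serpine2 was steady, with group means of 107 to 123 CPM in experiment 1 and log2 fold changes of -0.08 in females (SE 0.0828, edgeR adjusted p = 0.658) and 0.06 in males (SE 0.0831, adjusted p = 0.709).

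The remaining Serpina3 members did not pass the test for smoke in either sex. Serpina3g measured 9.57, 7.44 and 7.05 CPM in female air and 13.9, 21.4, 10.9, 14.1 and 6.94 CPM in female smoke. The lowest smoke library was under all air libraries while the other 4 were above them, and the log2 fold change was 0.75 (SE 0.331, edgeR adjusted p = 0.204). In males the log2 fold change of Serpina3g was -0.12 (SE 0.321, edgeR adjusted p = 0.878). Serpina3f, of which the counts are few, had a log2 fold change of 0.71 in females (SE 0.710, edgeR adjusted p = 0.631) and -0.81 in males (SE 0.676, adjusted p = 0.538). Serpina3m had one of -0.24 in females (SE 0.350, edgeR adjusted p = 0.752) and 0.70 in males (SE 0.310, adjusted p = 0.173). The male libraries did not overlap, at 4.22 to 5.11 CPM in air and 6.19 to 9.81 CPM in smoke, and Serpina3m was called when only these 2 groups were fitted (0.70, edgeR adjusted p = 0.0434). For Serpina3m the effect in males minus that in females was 0.94 (SE 0.466, edgeR adjusted p = 0.854). Without the libraries over 100 CPM of Alb, Serpina3m had log2 fold changes with smoke of -0.15 in females (edgeR adjusted p = 0.89) and 0.60 in males (adjusted p = 0.393).

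**Figure D2:**
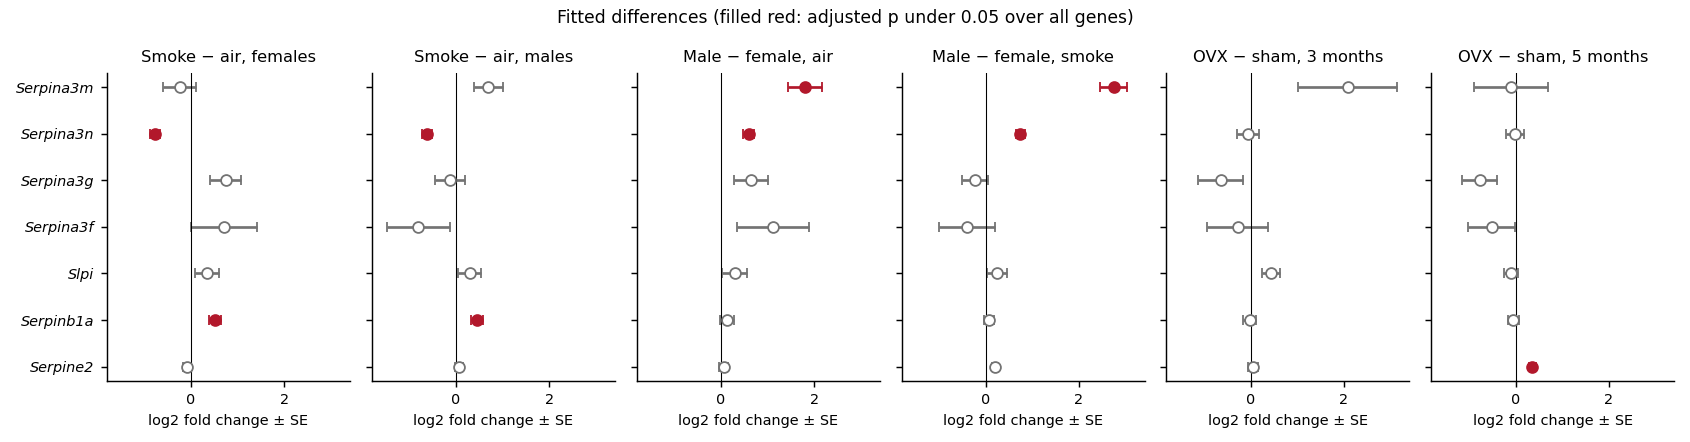
Fitted log2 fold change with its SE (horizontal axis) of the 7 members (vertical axis) in 6 comparisons, with OVX for ovariectomized; filled red points have an adjusted p under 0.05 over all genes in edgeR's quasi-likelihood F test. Serpina3n lies left of 0 with smoke and right of 0 in males against females, and Serpina3m has the largest called difference, 2.74 between males and females in smoke.

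Males carried more Serpina3m and Serpina3n RNA than females. In smoke Serpina3m was 6.68-fold and Serpina3n 1.67-fold higher in males, so that 2 of 7 members were called higher, where 0.189% of 16361 genes were called and 0.134% were higher. In air they were 3.49-fold and 1.51-fold higher, again 2 of 7, where 0.177% of genes were called and 0.128% were higher. Since the members were chosen with earlier results of these data known, the gap between these shares is no evidence about the set. The other 5 members did not pass the test in air or in smoke. The member median log2 fold change was 0.60 in air and 0.20 in smoke, against -0.01 and 0.00 for all genes tested.

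Serpina3m stood at 7.29, 7.24, 6.19, 9.81 and 7.35 CPM in male smoke and at 1.24, 1.82, 0.265, 0.873 and 1.35 CPM in female smoke. The lowest male library was above the highest female library, and the log2 fold change was 2.74 (SE 0.294, edgeR adjusted p = 1.13e-05). In air it stood at 4.22, 5.11 and 4.70 CPM in males and 1.36, 1.52 and 1.12 CPM in females. These groups did not overlap either, and the log2 fold change was 1.80 (SE 0.368, edgeR adjusted p = 0.0430). The call in smoke was kept without each library in turn, with a log2 fold change of 2.50 to 3.00. The call in air sat at the threshold: it ended without any 1 of 14 libraries, all but female smoke 2 and 3, at log2 fold changes of 1.71 to 1.91 and an edgeR adjusted p of up to 0.210. Its neighbour Serpina3k was at 0 to 0.328 CPM in the male smoke libraries and 0 to 0.655 CPM in the female smoke libraries. In air Serpina3k was at 59.4, 11.5 and 0.297 CPM in males and 1.70, 12.7 and 0.235 CPM in females, which overlapped. The Pearson correlation of Serpina3m and Serpina3k in log2 CPM over 16 libraries was 0.07 in experiment 1 and 0.78 in experiment 2.

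Serpina3n was at 93.2 to 116 CPM in male smoke and 55.7 to 78.9 CPM in female smoke, with no overlap. The log2 fold change was 0.74 (SE 0.0922, edgeR adjusted p = 0.000108). In air it was at 146 to 178 CPM in males and 105 to 110 CPM in females, also without overlap, and the log2 fold change was 0.60 (SE 0.117, edgeR adjusted p = 0.0318). The call in air ended without male air 2 (edgeR adjusted p = 0.111) or 3 (0.164), female air 1 (0.131), 2 (0.115) or 3 (0.0936), or male smoke 2 (0.0526). The male smoke libraries stood at about the level of the female air libraries. Summed over the row, Serpina3 counts were higher in males by 0.71 on the log2 scale in air (SE 0.122, edgeR adjusted p = 0.0117) and 0.61 in smoke (SE 0.0952, adjusted p = 0.00235). For the sum the call in air ended without female air 1 (edgeR adjusted p = 0.0531), 2 (0.0641) or 3 (0.0827). Serpina3c, the next most abundant gene of the row outside the members, had a log2 difference of 0.41 in smoke (SE 0.130, edgeR adjusted p = 0.390). Of the other members, Serpine2 came closest in smoke, with a log2 difference of 0.20 (SE 0.0720, edgeR adjusted p = 0.490).

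Liver transcripts varied widely among libraries, and their part in the results for Serpina3m was not tested. In experiment 1 the 5 male smoke libraries, which hold the highest Serpina3m levels, had a summed level of 10 liver genes of only 2.95 to 3.54 CPM, and the female smoke libraries 3.18 to 15.6 CPM. In male air 1, with 486 CPM of liver genes and 59.4 CPM of Serpina3k, Serpina3m was 4.22 CPM, and in male air 3, with 2.85 and 0.297 CPM, it was 4.70 CPM. Without the libraries over 100 CPM of Alb, the male against female log2 fold change of Serpina3m was 2.73 in smoke (edgeR adjusted p = 5.10e-05) and 1.99 in air (adjusted p = 0.103), the latter with 2 libraries per group left. Serpina3n then had 0.73 in smoke (edgeR adjusted p = 0.000239) and 0.67 in air (adjusted p = 0.0728). In experiment 2 the highest Serpina3m level, 9.03 CPM, came from ovariectomized 3-month 3, the library with the highest liver sum of 1659 CPM and 55.0 CPM of Serpina3k. Across libraries, Serpina3m and Alb had a Pearson correlation of log2 CPM of -0.12 in experiment 1 and 0.72 in experiment 2, each over 16 libraries. Ovariectomized 5-month 3 had 3.76 CPM of liver genes and 3.60 CPM of Serpina3m.

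**Figure D3:**
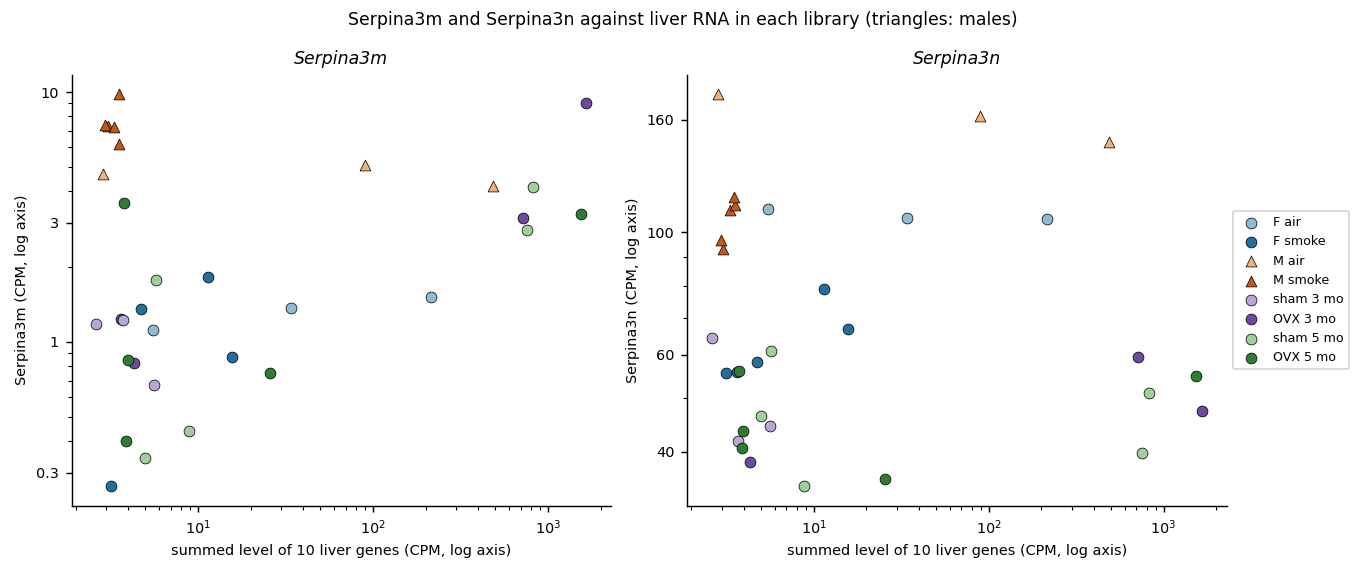
Level of Serpina3m (left) and Serpina3n (right) against the summed level of 10 liver genes in each library, all in CPM on log axes and scaled within each experiment; triangles are males, circles females, mo stands for months and OVX for ovariectomized. Male smoke libraries reach up to 9.81 CPM of Serpina3m at liver sums of 2.95 to 3.54 CPM, while among the ovariectomized and sham females most high values lie at liver sums of 716 CPM or more.

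Ovariectomized mice had more Serpine2 RNA than sham mice at 5 months of smoke, and no member passed the test at 3 months. At 5 months Serpine2 was 1.28-fold higher in ovariectomized than in sham mice, 1 of 7 members, where 1.36% of 16874 genes were called and 0.587% were higher. At 3 months 0% of genes were called by edgeR, with 1568 genes at an unadjusted p under 0.05 and 93 genes called by DESeq2. The member median log2 fold change was -0.02 at 3 months and -0.10 at 5 months, against 0.00 and -0.01 for all genes.

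Serpine2 stood at 86.2, 80.8, 74.2, 85.5 and 80.2 CPM in sham 5-month and at 98.1, 95.0, 107, 101 and 121 CPM in ovariectomized 5-month. All ovariectomized libraries lay above all sham libraries, and the log2 fold change was 0.36 (SE 0.0781, edgeR adjusted p = 0.0250). At 3 months the values were 99.9, 104 and 97.2 CPM in sham and 93.0, 124 and 94.9 CPM in ovariectomized mice, which overlapped, with a log2 fold change of 0.05 (SE 0.101, edgeR adjusted p = 0.921). The effect at 5 months minus that at 3 months was 0.31 on the log2 scale (SE 0.127), which did not pass the test (edgeR adjusted p = 0.938). No member and 0% of genes passed it with edgeR, and DESeq2 called 23. With edgeR 844 of 16874 genes were at an unadjusted p under 0.05, about the share that chance alone puts there. The call at 5 months ended without sham 1 (edgeR adjusted p = 0.0533), 3 (0.0674) or 5 (0.0656), or ovariectomized 3 (0.0544) or 5 (0.0525), at log2 fold changes of 0.30 to 0.38. Without the libraries over 100 CPM of Alb it was 0.33 (adjusted p = 0.0496). From 3 to 5 months of smoke, averaged over both operations, no member passed the test, where 0.13% of genes did. Serpine2 had a log2 difference of -0.15 (SE 0.0634, edgeR adjusted p = 0.304). Its sham libraries lay at 97.2 to 104 CPM at 3 months and, without overlap, at 74.2 to 86.2 CPM at 5 months. The ovariectomized libraries overlapped, at 93.0 to 124 and 95.0 to 121 CPM. The change over time was not tested within each operation.

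Serpina3g was lower after ovariectomy by fitted value at both times, without passing the test. At 3 months it measured 14.1, 17.1 and 20.4 CPM in sham and 11.8, 13.4 and 7.86 CPM in ovariectomized libraries, which did not overlap, with a log2 fold change of -0.64 (SE 0.480, edgeR adjusted p = 0.711). At 5 months it measured 16.2, 7.40, 29.5, 9.18 and 20.1 CPM against 10.3, 12.7, 7.31, 5.00 and 13.4 CPM, with overlap, and the log2 fold change was -0.76 (SE 0.373, edgeR adjusted p = 0.354). Slpi at 3 months measured 57.0, 53.3 and 55.3 CPM in sham and 67.1, 73.5 and 84.2 CPM in ovariectomized libraries. Those groups did not overlap, but the log2 fold change of 0.44 (SE 0.197) did not pass the test (edgeR adjusted p = 0.522). At 5 months the log2 fold change of Slpi was -0.10 (SE 0.152, edgeR adjusted p = 0.812). With 3 libraries per group, as at 3 months, groups can readily separate by chance. Serpina3m was 1.22, 0.671 and 1.18 CPM in sham 3-month and 0.825, 3.14 and 9.03 CPM in ovariectomized 3-month, with a log2 fold change of 2.08 (SE 1.06, edgeR adjusted p = 0.569). Its upper pair of values came from the libraries over 100 CPM of Alb, and without those the log2 fold change was -0.31, with 1 ovariectomized library left that is assumed to vary like the other groups. Serpina3n had log2 fold changes of -0.05 and -0.01 at 3 and 5 months (SE 0.240 and 0.186, edgeR adjusted p = 0.974 and 0.985), and Serpinb1a of -0.02 and -0.05 (SE 0.145 and 0.112, adjusted p = 0.985 and 0.890). Those of Serpina3f were -0.28 and -0.51 (SE 0.644 and 0.506, edgeR adjusted p = 0.936 and 0.693).

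Related inhibitors and their targets were counted in lists. Among other clade B serpins, the intracellular relatives of Serpinb1a, 3 of 8 tested rose and 0 fell with smoke in each sex. Serpinb6b was 1.44-fold (females) and 1.52-fold (males) higher. Serpinb9, which protects cytotoxic cells from their own granzyme B, was 1.51-fold and 1.40-fold higher, a call that ended in males without male air 2 (edgeR adjusted p = 0.0503). Among serpins of other clades 2 of 9 fell and 0 rose in each sex. Of 8 WAP domain inhibitors, the family of Slpi, 2 fell in females and 1 in males with 0 rising, and Wfdc1 was 1.57-fold lower in males. Of 15 other protease inhibitors 2 fell in females and 3 in males, with Timp1, an inhibitor of matrix metalloproteinases, 2.09-fold and 2.03-fold lower. Of 12 genes listed for the thrombin and plasmin system, whose proteases Serpine2 inhibits, 1 rose in females and 4 fell in males. The 1 in females was Htra1, a protease gene outside that system. Its call ended without any 1 of 6 libraries (edgeR adjusted p up to 0.165). The male count includes Plg and F2, both liver genes, whose calls ended without male air 1 (edgeR adjusted p = 0.121 and 0.239). It also includes Plaur, the urokinase receptor, at 1.56-fold lower and Lrp1, which takes up serpin and protease complexes, at 1.46-fold lower. Of 10 elastin degrading and lysosomal proteases 0 were called in females and 3 rose in males, among them Ctsh, 1.35-fold higher. None of 4 granzyme genes and none of 4 mast cell and basophil protease genes tested was called in either sex. Median log2 fold changes in females and males were 0.37 and 0.42 for other clade B serpins, -0.22 and -0.33 for serpins of other clades, -0.41 and -0.51 for WAP domain inhibitors and -0.16 and -0.05 for other protease inhibitors. They were -0.11 and -0.33 for the thrombin and plasmin system and 0.08 and 0.25 for elastin degrading and lysosomal proteases, where all genes tested had -0.01 and 0.01. The background shares are those given with the members under smoke.

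**Figure D4:**
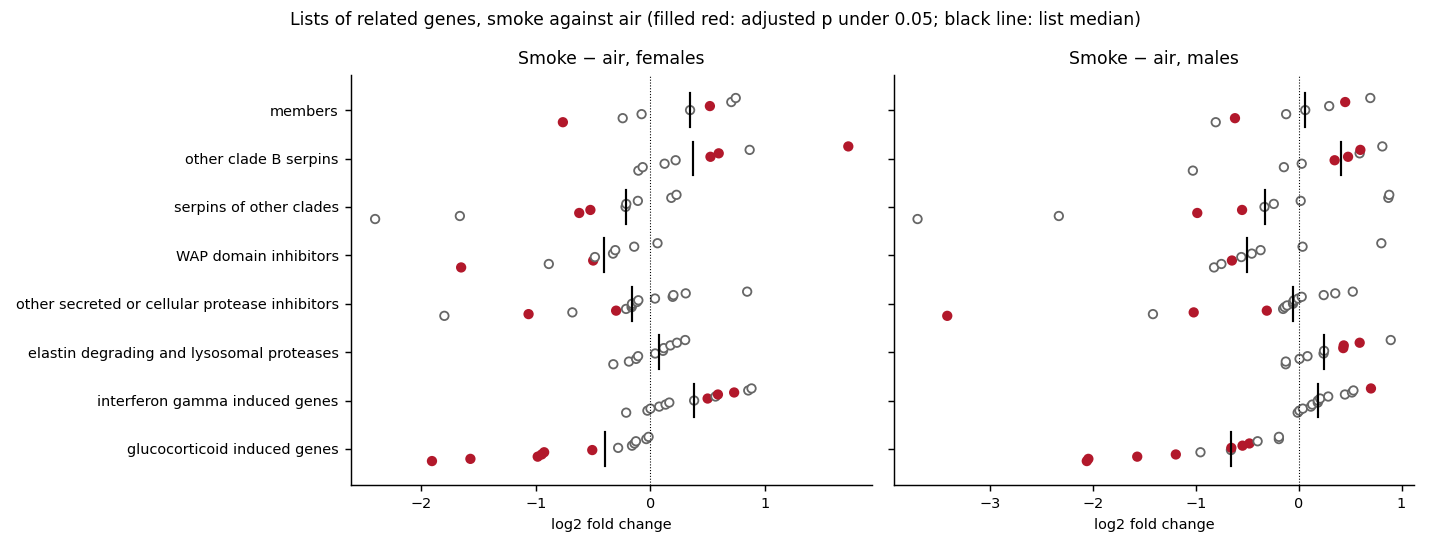
Log2 fold change of smoke against air (horizontal axis) in females (left) and males (right) for each tested gene of 8 lists (vertical axis); the first list holds the 7 members, filled red points have an adjusted p under 0.05 in edgeR's quasi-likelihood F test, and black lines are list medians. Other clade B serpins are called on the right of 0 only, and glucocorticoid induced genes on the left of 0 only.

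Lists for signals known to act on the Serpina3 genes were counted in the same way. Of 12 glucocorticoid induced genes 6 fell in females and 7 in males, with 0 rising, and their median log2 fold changes were -0.39 and -0.66. Zbtb16 fell 3.75-fold and 4.16-fold and Hif3a 2.97-fold and 2.97-fold in females and males. Of 13 interferon gamma induced genes 3 rose in females and 1 in males, with medians of 0.38 and 0.19. Among all genes tested, 4.52% were called higher and 3.18% lower in females, and 4.93% higher and 5.33% lower in males. Gbp2 and Gbp5 rose 1.51-fold and 1.66-fold in females, and Cd274, which encodes PD-L1, was 1.41-fold (females) and 1.63-fold (males) higher. Serpina3g, which that signal induces, was not called in either sex, as described above. The part of either signal in the levels of the Serpina3 genes was not tested.

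Across libraries some members varied together and others did not. Serpina3g and Serpina3f had a Pearson correlation of log2 CPM of 0.75 in experiment 1 and 0.56 in experiment 2. Serpina3m and Serpina3n had 0.65 and 0.5, whereas Serpina3n and Serpina3g had -0.01 and 0.13. A part of the promoter motifs in these values was not tested. All such values are over 16 libraries of 1 experiment that share groups and depth, and the 2 genes of a pair may share reads. Serpina3n and Serpinb1a ran in opposite directions, at -0.49 and -0.62. Among all other genes, those most like a member were taken by the smaller of the correlations in experiments 1 and 2. For Serpina3n they were Wisp2 (0.94 and 0.83), Sod3, the extracellular superoxide dismutase (0.82 and 0.79), and Prelp, a matrix proteoglycan (0.78 and 0.79). For Slpi they were Rarres2, which encodes chemerin (0.83 and 0.79), Pfdn4 (0.78 and 0.89) and Rplp1, a ribosomal protein gene (0.73 and 0.72). For Serpinb1a they were Crb2 (0.79 and 0.77), the phospholipase gene Pla2g2d (0.75 and 0.74) and Mzb1, a gene of plasma cells (0.74 and 0.69). For Serpine2 they were its relative Serpinf1 (0.64 and 0.64), Olfm2 (0.63 and 0.65) and Apod, the apolipoprotein D gene (0.64 and 0.63). Serpina3m, Serpina3g and Serpina3f had looser matches, led by Pde1a (0.59 and 0.71), Lax1 (0.66 and 0.67) and Ralgds (0.74 and 0.67).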

How the data were processed

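The authors deposited whole-number counts per Ensembl gene and a normalized table. The header does not name the unit of the latter, and the deposited values equal counts per gene length scaled to a common total (TPM) within a tolerance of 1e-06. Per the submitters' processing notes, FastQC and the builds GRCm38 and mm10 were used; the sources used here do not give the aligner, counting program or strand setting. Per the labels' protocols, Trizol served for the RNA and the NEBNext Ultra 2 kit for the libraries. All 32 count columns were matched to libraries by title, and groups are those of the labels.

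Each experiment (16 libraries) was fitted in R 4.3.3 with edgeR 4.0.16 (filterByExpr, TMM scaling, robust quasi-likelihood F test, 1 mean per group, Benjamini-Hochberg over 16361 or 16874 genes). SEs were derived from the F statistic. DESeq2 1.42.0, limma 3.58.1 on log2(TPM + 1), RLE size factors, no filter, a replicate block, only the groups compared, and leaving out the libraries over 100 CPM of Alb or each library in turn were alternatives. The edgeR procedure was tested on simulated data with known changes and recovered large changes more often than small ones. Members and lists were chosen with earlier results of these data known. All 7 members are named; genes of lists were eligible when called or among the 2 of smallest p, and those printed were picked among them after their values were seen. Genes most like a member needed a mean log2 CPM of at least 1 in both experiments (prior count 2). Identical stretches were sought in GENCODE M21 transcripts, and promoters come from RefSeq. Depth and the 3 or 5 libraries per group limit precision. No 2 libraries of a group were copies of each other. Plots were drawn with matplotlib 3.10.9.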

Additional observations from a re-analysis of the deposited data

Results flagged for a closer look

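Of 28 sets of 5 libraries (7 members in 4 groups), 1 held a library far from the rest. Slpi in ovariectomized 5-month replicate 2 stood at 88.0 CPM, with the other 4 libraries of the group between 52.9 and 61.5 CPM. The gap to the next library was 0.754 of the group's whole range, above the critical value of 0.71. Chance alone flags about 1 in 20 such groups. Without this library the log2 fold change of Slpi at 5 months was -0.25.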

How the results depend on the processing

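All 9 called member results stayed called with DESeq2, with RLE size factors, without a low-count filter and with the replicate block, 8 with only the 2 groups compared, where Serpina3m with smoke in males was called in addition (0.70, adjusted p = 0.0434), 6 with limma on log2(TPM + 1) and 7 without the libraries over 100 CPM of Alb. With limma the members called were 1 for smoke in males, 1 for sex in air and 0 for ovariectomy at 5 months, and without the Alb libraries 0 for sex in air. Leaving out each library gave 1 to 2 members for smoke in each sex, 0 to 2 for sex in air, 2 throughout for sex in smoke and 0 to 1 for ovariectomy at 5 months. Of 91 called list gene results, 54 were lost without at least 1 library. The numbers of replicates do not pair libraries (6 of 22 same-numbered pairs had r over 0.1, range -0.30 to 0.19), and the replicate block changed no member call. The causes of the changes below were not tested.

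Genes called with limma were 787 for smoke in females, 996 in males, 0 for the sex difference in smoke effect, 16 for sex in air, 1 for ovariectomy at 3 months and 1 for time. DESeq2 called 17 for the sex difference in smoke effect, 133 for sex in air, 63 for sex in smoke, 93 and 602 for ovariectomy at 3 and 5 months, 23 for their difference and 482 for time. The replicate block gave 0, 44, 10 and 74 for the sex difference in smoke effect, sex in air, ovariectomy at 3 months and time. No filter gave 3 for ovariectomy at 3 months and 85 for time, only the 2 groups gave 2 at 3 months, and leaving out the Alb libraries gave 111 for ovariectomy at 5 months and 135 for time. Leaving out each library gave 490 (without female air 3) to 1380 genes for smoke in females, 962 (without male air 3) to 1809 in males, 0 to 4 for the sex difference, 10 to 42 for sex in air, 20 to 34 for sex in smoke, 0 to 6 and 39 (without sham 1) to 277 for ovariectomy at 3 and 5 months, 0 to 0 for their difference and 2 to 125 for time.

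Sign changes concerned uncalled members. For smoke in males, Serpina3g became 0.017 with the replicate block and ran from -0.33 to 0.17 over left-out libraries, and Serpine2 from -0.0017 to 0.098. For sex in air, Slpi became -0.087 without the Alb libraries and ran from -0.0022 to 0.45, and the Serpina3 sum, called before, became 0.69 (adjusted p = 0.0865) and ran from 0.67 to 0.75. For sex in smoke, Serpina3g ran from -0.39 to 0.0070. For ovariectomy at 3 months without the Alb libraries, Serpina3m became -0.31, Serpina3f 0.35, Serpinb1a 0.28, Serpine2 -0.11 and the sum -0.32. Serpina3f was 0.0078 with the replicate block and Serpine2 -0.0082 with limma. Over left-out libraries Serpina3n ran from -0.22 to 0.17, Serpina3f from -0.73 to 0.087, Serpinb1a from -0.19 to 0.12, Serpine2 from -0.095 to 0.13 and the sum from -0.048 to 0.43. At 5 months Serpina3m became 0.71 and Slpi 0.081 without the Alb libraries, and over left-out libraries Serpina3m ran from -0.54 to 0.40, Serpina3n from -0.10 to 0.10, Serpina3f from -0.71 to 0.10, Slpi from -0.25 to 0.046 and Serpinb1a from -0.092 to 0.030.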

Other observations

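Of 12 tested genes listed for the acute phase, the class to which Serpina3n belongs, 1 rose in smoke-exposed females, and 2 rose and 2 fell in males. The 1 in females was the cytokine gene Il1b, whose call ended without female air 3 (edgeR adjusted p = 0.0579). In males Il1b and Lcn2 rose, and C3 and Hpx fell. Each of these calls ended without at least 1 library. That of Lcn2 ended without any 1 of 10, and that of Hpx without male air 1 (edgeR adjusted p = 0.244), among others. Over all genes tested, 4.52% were called higher and 3.18% lower in females, and 4.93% higher and 5.33% lower in males. C3, the central complement protein, was 1.87-fold higher in male than in female air libraries (log2 fold change 0.90, SE 0.141, edgeR adjusted p = 0.00408), and its difference between the sexes in smoke was 0.09 (SE 0.108, adjusted p = 0.887). Serping1, the C1 inhibitor and a serpin of another clade, was 1.31-fold higher in males in smoke (log2 fold change 0.39, SE 0.0724, edgeR adjusted p = 0.0176), and the groups did not overlap. That call ended without male smoke 3 (adjusted p = 0.0564) or 5 (0.0729), or female smoke 1 (0.0709), 4 (0.0633) or 5 (0.0655).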
